A study of Homo sapiens with 6 samples.

Results

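The 31 genes described here encode enzymes that build cholesterol and proteins that take it up, move it, store it as an ester or export it. They were chosen by symbol, through the Ensembl gene ID of each row, and all 31 were found among the 60240 genes of the deposited table. The list holds 8 genes of the mevalonate and isoprenoid steps, 12 of the squalene and sterol steps, 2 that govern the pathway or receptor turnover (INSIG1 and MYLIP), 4 of uptake and intracellular transport, 2 of esterification and 3 of export. RNA came from HepG2, a human hepatocellular carcinoma line, which is 1 cell line and not a set of donors. GDF11 is a secreted growth factor related to TGF-beta and myostatin. The treated cultures were kept for 24 h with recombinant GDF11 at 100 ng/ml, and control cultures had no GDF11; the medium named for both held fetal bovine serum. Each group had 3 libraries that the labels call biological replicates, and the labels name no genotype or transgene.

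Cells make cholesterol from acetyl-CoA by way of mevalonate, isoprenoid diphosphates, squalene and lanosterol, and the same cells can take it up from lipoproteins. When sterol is scarce in the endoplasmic reticulum, the transcription factor SREBP-2 is released and activates most genes of the synthesis route together. When sterol is plentiful, oxysterols bind LXR receptors, which activate export genes and MYLIP. The liver is the main organ that clears lipoprotein cholesterol and passes it into bile.

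Values are the authors' variance-stabilised log2 values, where 5.52 is the lowest value and stands for no reads. The scale shrinks changes of weakly expressed genes, keeping 0.696 of a true log2 change at a value of 8 and 0.978 at 12, so differences are given on this scale and folds on back-transformed normalised reads. Depth estimated from the step of 1 read was 47900000 to 53400000 reads per library. The labels name a MiSeq, whose runs usually give fewer reads than this, so the estimate is uncertain. A gene was tested if its mean lay at least 0.5 above the lowest value, and it was called if limma's p, adjusted by Benjamini-Hochberg over the 18723 genes tested, was under 0.05. Of the cholesterol genes 30 passed that filter, and INSIG1 did not. The labelled cell type was checked on 10 hepatocyte genes, which were detected in every library. Their summed reads were 843639 to 932706 in GDF11 libraries, against 1262887 to 1715504 in control libraries. Of the 10 genes 6 fell, where 10.8% of all genes tested were lower. Whether this has a part in the results below was not tested. In such bulk RNA, fewer cells of a kind and less RNA per cell cannot be told apart. Of 5 blood cell genes PTPRC and CD3E were at the lowest value in the 6 libraries, and of 4 endothelial genes TEK was, while VWF fell by 0.87 near the lowest value. Of 6 fibroblast or stellate cell genes PDGFRB was called, higher by 0.92, and DCN, LUM, PDGFRA and COL1A2 were at or near the lowest value.

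Among these genes control replicate 3 differed from the other controls, and it bears on most results below. It lay under both other controls for 18 of the 30 tested members, above both for 10 and between them for 2. Its median distance from the mean of the other controls was 0.46, against 0.16 between control replicates 1 and 2. The RNA integrity numbers were 9.6, 9.5 and 9.4 in GDF11 replicates 1, 2 and 3, against 9.8, 9.9 and 9.6 in control replicates 1, 2 and 3. No GDF11 library was above any control in this number, and the groups met only at 9.6. A fit that holds both RNA integrity and treatment therefore cannot fully tell them apart.

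In GDF11-treated cells 9 of the 20 synthesis enzymes fell, as did SOAT2, which stores cholesterol as an ester, and ABCG8, which exports it, while MYLIP rose. Of the 30 tested members 11 fell, 1 rose and 18 were not called. Among all genes tested, 22.4% were called, with 10.8% lower and 11.7% higher. The median log2 difference of the members was -0.47, against 0.01 for all genes tested. In GDF11 libraries the values of 14 members lay under every control value and those of 2 lay above every control value, while over all genes tested such a lower position held for 19.6% and a higher one for 20.9%. Over the 20 synthesis enzymes the median difference was -0.55. Without control replicate 3, 17 members were lower and 2 higher, where 21.3% of all genes were lower and 19.5% higher. With RNA integrity added to the fit 4 members were lower and 0 higher by limma (of all genes 9.99% were called, 3.85% lower and 6.14% higher), and ACAT2, SOAT2 and ABCG8 were among the 4; the other was LBR.

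**Figure D1:**
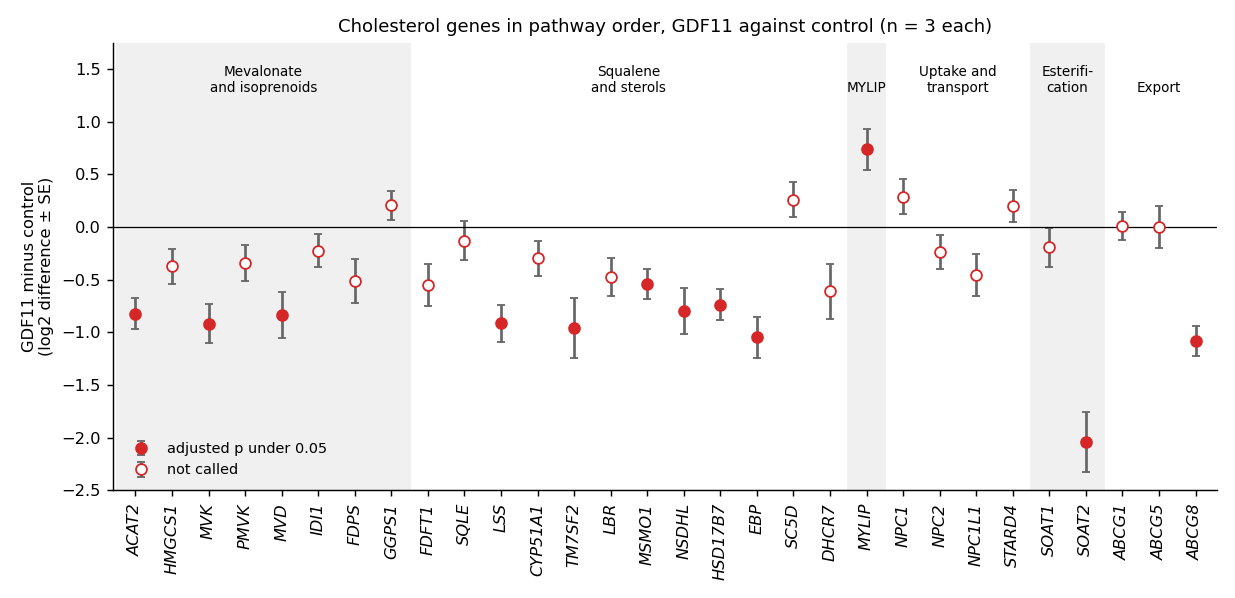
Log2 difference between the GDF11 and control means with its standard error for the 30 tested cholesterol genes, in pathway order; filled points were called at an adjusted p under 0.05. SOAT2 at -2.04 and ABCG8 at -1.08 lie lowest, the enzymes called lower lie between -0.54 and -1.05, and MYLIP at 0.74 is the single filled point above 0.

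The pathway opens with ACAT2, which encodes the cytosolic thiolase that joins acetyl-CoA units into acetoacetyl-CoA and is distinct from the sterol esterifying enzyme SOAT2. ACAT2 (ENSG00000120437.9, chromosome 6, 159762045 to 159779112 of GRCh38) stood at 13.29, 13.31 and 13.36 in GDF11 libraries, against 14.16, 14.23 and 14.02 in control libraries. Every GDF11 value lay under every control value by at least 0.66, and control replicate 3 was close to the other controls. The gene fell by 0.82 ± 0.14 (difference ± SE, 3 against 3; limma adjusted p = 0.00419), to 56.3% of the control on normalised reads. ACAT2 overlaps TCP1 on the opposite strand over 615 bases of the annotation, and the sources used here do not say whether the counting used strand.

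HMGCS1, the synthase that adds the next acetyl unit, stood at 12.48, 12.34 and 12.74 in GDF11 libraries, against 12.86, 12.76 and 13.06 in control libraries. The groups did not overlap, but the gap was 0.01, and the gene was not called (-0.37 ± 0.17, adjusted p = 0.137). Its call changed with the treatment of the libraries, since it was lower once the trend of each library on transcript GC content and length was removed (-0.53, adjusted p = 0.00558).

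Between mevalonate and isopentenyl diphosphate lie a pair of kinases and a decarboxylase. MVK, mevalonate kinase (ENSG00000110921.14, chromosome 12, 109573272 to 109598125 of GRCh38), stood at 11.04, 10.99 and 10.93 in GDF11 libraries, against 11.97, 12.21 and 11.53 in control libraries. Its GDF11 values clustered within 0.05 (SD) while the controls spread by 0.35 (SD), with control replicate 3 nearest to the GDF11 libraries. MVK fell by 0.92 ± 0.19 (adjusted p = 0.00905), to 50.9% of the control, and it was not called with RNA integrity in the fit (-0.45, adjusted p = 0.186). MVD, the decarboxylase, had values of 13.04, 13.04 and 12.94 with GDF11, against 14.06, 14.11 and 13.33 without. MVD fell by 0.83 ± 0.22 (adjusted p = 0.0256), and the call was lost whenever control replicate 1 or 2 or any GDF11 library was left out, at differences of -0.85 to -0.69. With RNA integrity in the fit MVD stood at -0.28 and was not called (adjusted p = 0.499). PMVK, the second kinase, averaged 10.17 ± 0.08 with GDF11 and 10.51 ± 0.28 in controls (SD, n = 3 each) and was not called (adjusted p = 0.188). Control replicate 3, at 10.19, lay within the GDF11 values of 10.09 to 10.25.

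Isoprenoid diphosphates feed sterols, ubiquinone, dolichol and the lipid anchors of proteins. IDI1, the isomerase, averaged 12.17 ± 0.16 with GDF11 and 12.39 ± 0.14 in controls and was not called (-0.22 ± 0.15, adjusted p = 0.325). FDPS, which makes farnesyl diphosphate, stood at 13.67, 13.79 and 13.54 in GDF11 libraries, against 14.32, 14.47 and 13.75 in control libraries, so control replicate 3 lay inside the GDF11 range. FDPS was not called with the 6 libraries (-0.51 ± 0.21, adjusted p = 0.107) and was lower without control replicate 3 (-0.73, adjusted p = 0.00224). Over the 20 alternative settings tried, the FDPS difference ran from -0.73 to -0.002, so it came close to no difference in at least 1 setting. GGPS1, which diverts the route to geranylgeranyl diphosphate for protein anchors, had GDF11 values of 10.66, 10.76 and 10.86, above the control values of 10.62, 10.61 and 10.44. It was not called (0.20 ± 0.14, adjusted p = 0.324).

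Squalene synthase, encoded by FDFT1, commits farnesyl units to sterols. FDFT1 stood at 14.15, 14.22 and 13.97 in GDF11 libraries, against 14.79, 14.92 and 14.29 in control libraries; the groups did not overlap, and the gap was 0.07. It was not called with the 6 libraries (-0.55 ± 0.20, adjusted p = 0.0760) and was lower without control replicate 3 (-0.74, adjusted p = 0.00210). Over the 20 alternative settings the FDFT1 difference ran from -0.74 to -0.071. SQLE, the squalene monooxygenase that is a rate-controlling step after mevalonate, had 12.96, 12.83 and 13.14 with GDF11, against 12.85, 13.03 and 13.43 without. Its groups overlapped and it was not called (-0.13 ± 0.19, adjusted p = 0.648), with a difference of 0.03 without control replicate 3, 0.02 with quantile normalization and 0.03 with library weights.

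LSS closes the rings to lanosterol, the first sterol. LSS (ENSG00000160285.15, chromosome 21, 46188446 to 46228774 of GRCh38) stood at 13.25, 13.13 and 13.11 in GDF11 libraries, against 14.06, 14.35 and 13.82 in control libraries. The nearest values of the groups were 0.57 apart, and LSS fell by 0.91 ± 0.17 (adjusted p = 0.00634), to 52.2% of the control; with RNA integrity in the fit it was not called (-0.54, adjusted p = 0.0957). CYP51A1, the lanosterol demethylase that follows, had 12.71, 12.64 and 13.03 with GDF11, against 12.99, 12.98 and 13.30 without, and was not called (-0.30 ± 0.17, adjusted p = 0.238). GDF11 replicate 3 was the highest GDF11 library for CYP51A1, SQLE and HMGCS1, and control replicate 3 the highest control.

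TM7SF2 and LBR each encode a reductase of the same double bond, LBR being also a receptor of the nuclear lamina. TM7SF2 stood at 12.36, 12.45 and 12.08 in GDF11 libraries, against 13.53, 13.69 and 12.55 in control libraries, so control replicate 3 lay 1.06 under the mean of the other controls. TM7SF2 fell by 0.96 ± 0.28 (adjusted p = 0.0406), and the call ended at differences of -1.04 to -0.74 when any library other than control replicate 3 was left out. With RNA integrity in the fit TM7SF2 stood at -0.10 (adjusted p = 0.848) and LBR, next, at -0.91 (adjusted p = 0.0178). LBR had 11.44, 11.36 and 11.68 with GDF11, against 11.96, 11.69 and 12.26 without; the gap between the groups was 0.01, and it was not called (-0.47 ± 0.18, adjusted p = 0.0938). In control replicate 3 LBR was the highest and TM7SF2 the lowest of the controls. The log2 difference TM7SF2 minus LBR averaged 0.80 ± 0.36 with GDF11 and 1.29 ± 0.89 in controls, and the exact two-sided permutation test gave p = 0.5, where 0.1 is the smallest p for 3 against 3.

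MSMO1, NSDHL and HSD17B7 act together to strip methyl groups from the sterol ring. MSMO1, the oxidase, stood at 12.74, 12.70 and 12.93 in GDF11 libraries, against 13.41, 13.29 and 13.28 in control libraries. It fell by 0.54 ± 0.14 (adjusted p = 0.0280); the call ended without control replicate 1 or 2 or any GDF11 library (-0.61 to -0.49), with quantile normalization (-0.39), with RNA integrity in the fit (-0.58, adjusted p = 0.0862) and without the filter on low values (adjusted p = 0.0516). NSDHL, the dehydrogenase, had 11.57, 11.59 and 11.43 with GDF11, against 12.50, 12.66 and 11.82 without. NSDHL fell by 0.80 ± 0.22 (adjusted p = 0.0315), and the call was lost without any library other than control replicate 3 (-0.82 to -0.63). With RNA integrity in the fit NSDHL stood at -0.19 and was not called (adjusted p = 0.631). HSD17B7, the ketone reductase, had 10.40, 10.52 and 10.56 with GDF11, against 11.31, 11.33 and 11.06 without. HSD17B7 fell by 0.74 ± 0.15 (adjusted p = 0.00768), and the call was lost without GDF11 replicate 1 (adjusted p = 0.0506) and with RNA integrity in the fit (-0.62, adjusted p = 0.0840). Its pseudogene HSD17B7P2 can share reads with it and differed by -0.32 ± 0.14 (adjusted p = 0.134), so the gene of origin is uncertain.

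EBP, SC5D and DHCR7 finish the sterol by shifting, adding and removing double bonds. EBP, the isomerase (ENSG00000147155.11, chromosome X, 48521808 to 48528716 of GRCh38), stood at 12.42, 12.37 and 12.24 in GDF11 libraries, against 13.47, 13.71 and 12.99 in control libraries. EBP fell by 1.05 ± 0.20 (adjusted p = 0.00627), to 47.0% of the control, with the groups 0.57 apart at their nearest. With RNA integrity in the fit it was not called (-0.53, adjusted p = 0.113). In the annotation EBP overlaps the protein-coding gene ENSG00000286268 on the same strand over 6911 bases. Strand cannot tell reads of these genes apart there, so the gene of origin is uncertain. SC5D, the desaturase, had 12.52, 12.16 and 12.63 with GDF11, against 12.26, 12.16 and 12.12 without, and was not called (0.26 ± 0.16, adjusted p = 0.283). DHCR7, the final reductase of this branch, had 14.04, 14.13 and 14.01 with GDF11, against 14.88, 15.10 and 14.03 without. Control replicate 3 lay among the GDF11 libraries, and DHCR7 was not called with the 6 libraries (-0.61 ± 0.26, adjusted p = 0.123) but was lower without that control (-0.93, adjusted p = 0.000612).

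**Figure D2:**
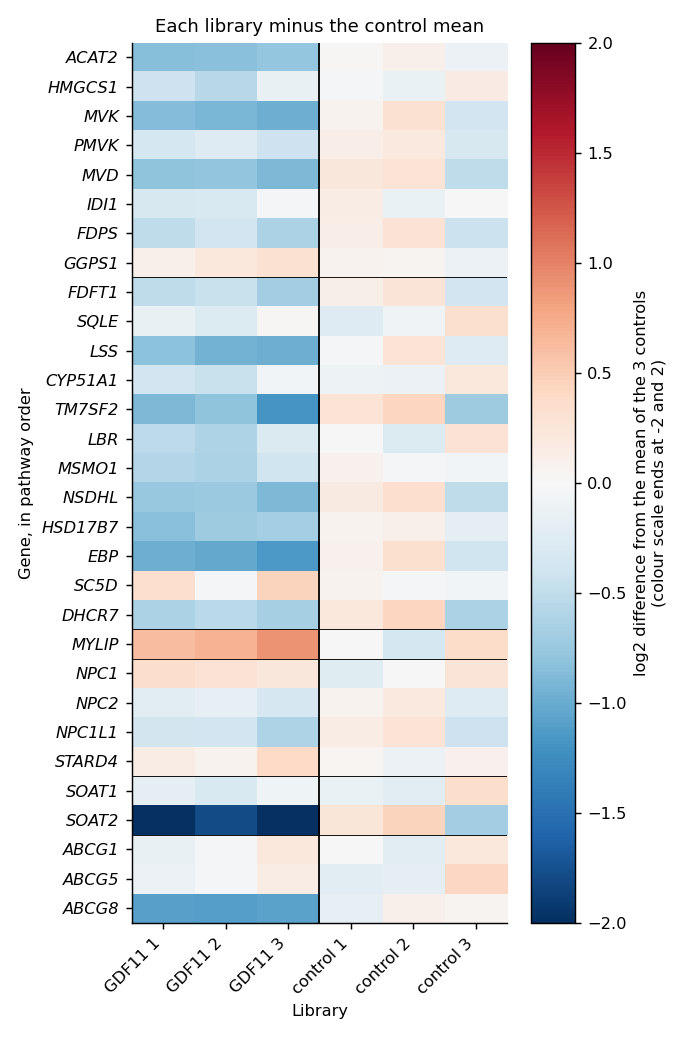
Each library's log2 value minus the mean of the 3 controls for the 30 tested genes, in pathway order, with GDF11 libraries left of the controls and a colour scale that ends at -2 and 2. Rows such as ACAT2 and ABCG8 are blue in the 3 GDF11 columns and near white in the 3 controls, whereas in DHCR7 and TM7SF2 control replicate 3 is blue as well.

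Sorted by how the libraries stood, the 20 synthesis enzymes fell into 3 classes. For 12 of them, against 19.6% of all genes tested, the 3 GDF11 values lay under the 3 controls. For another 3 (PMVK, FDPS and DHCR7) they lay under control replicates 1 and 2 but not under control replicate 3. The remaining 5 (IDI1, GGPS1, SQLE, CYP51A1 and SC5D) had at least 1 GDF11 value that was not under control replicates 1 and 2. Over the 13 enzymes whose GDF11 mean differed from control replicates 1 and 2 by at least 0.5, control replicate 3 lay at a median of 0.70 of the way to the GDF11 mean, against 0.51 over all 6490 tested genes with such a difference. Its place was 0.20 for ACAT2, 0.14 for MSMO1 and 0.31 for HSD17B7, against 0.81 for TM7SF2, 0.89 for FDPS and 1.03 for DHCR7.

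**Figure D3:**
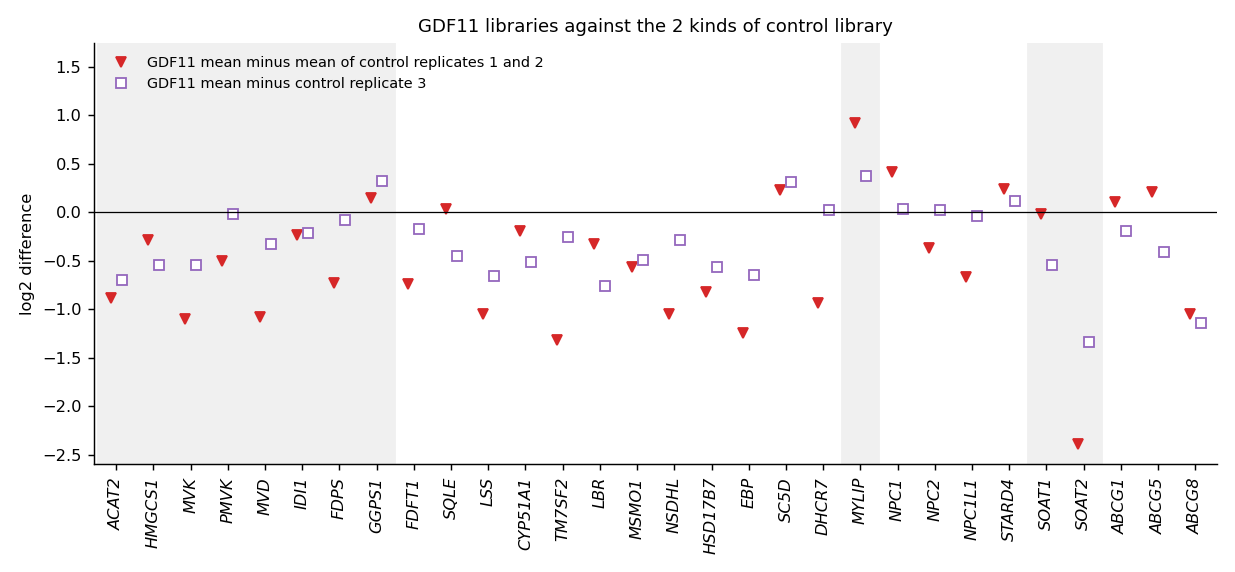
GDF11 mean minus the mean of control replicates 1 and 2 (filled triangles) and GDF11 mean minus control replicate 3 (open squares), in log2, for the 30 tested genes in pathway order. The markers lie close together for ABCG8 (-1.05 and -1.14) and MSMO1 (-0.56 and -0.49) and far apart for DHCR7 (-0.93 and 0.03) and TM7SF2 (-1.31 and -0.25).

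The distance of control replicate 3 from the other controls went with the base composition of the transcripts. Across the 30 tested members Spearman's rho between that distance and transcript GC content was -0.60, and with transcript length 0.57; over 18557 tested genes with a transcript the values were -0.44 and 0.38. These correlations describe genes of the same libraries, which are not independent. Of 12 members with a GC content of at least 50%, 10 were lower in control replicate 3 than in the other controls, with a median of -0.61, and of 18 members under 50%, 9 were, with a median of 0.03. Among all tested genes with a transcript, 5857 of 8731 in the first class were lower there, with a median of -0.17. In the second class 3244 of 9826 were, with a median of 0.15. Against control replicate 3 alone, the difference of the members' GDF11 mean showed a rho of -0.07 with GC content. The members' medians of that difference in the 2 classes were -0.29 and -0.37. Once the GC and length trend was removed from each library, 15 members were lower and 1 higher, where 16.4% of all genes were lower and 13.6% higher. The members gained were HMGCS1, LBR, NPC1L1 and SOAT1, and none of the 12 calls was lost.

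**Figure D4:**
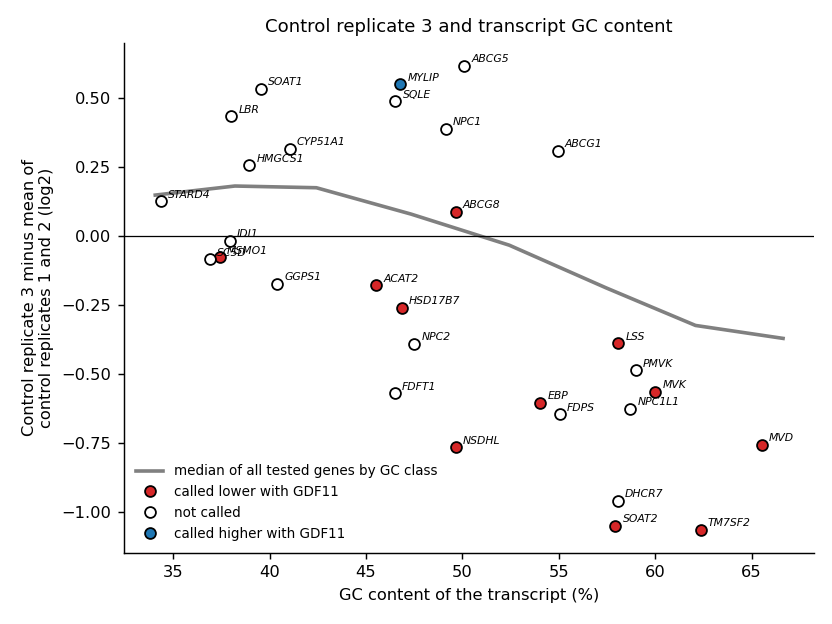
Control replicate 3 minus the mean of control replicates 1 and 2 (log2) against the GC content of each member's transcript, with the median of all tested genes by GC class as a grey line. SOAT2, TM7SF2 and DHCR7 lie near -1 at a GC content over 55%, and the members above 0.4 (LBR, SOAT1, SQLE, MYLIP and ABCG5) lie between 38.0% and 50.1%.

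SREBP-2 is known to act at promoters together with NF-Y, the factor that binds CCAAT boxes, so the letters of the members' promoters were read beside these values. RefSeq promoters of GRCh38.p14, running from 250 bases before to 50 bases after the start used for each gene, matched 26 of the 31 members. CCAAT on either strand (CCAAT or ATTGG) was found in 18 of the 26, against 34.6% of 35116 promoters, and in 8 of the 9 members called lower that had a promoter. Among members not called lower it was found in 10 of 17. The SREBP-type letters TCACNCCAC, on both strands, were in 0 of the 26 windows and in 1.13% of all promoters. For letters this rare, 0 matches in 26 windows cannot show that the members differ from other promoters or lack SREBP sites. The 5 members that fell and held 3 or more CCAAT boxes are printed here to show the boxes; capitals mark each box, and the gene's own strand is given. LSS, TM7SF2 and HSD17B7 fell with 1, 1 and 2 boxes, and FDPS held 3 boxes and was not called.
MVK, chr12:109573544-109573843, plus strand: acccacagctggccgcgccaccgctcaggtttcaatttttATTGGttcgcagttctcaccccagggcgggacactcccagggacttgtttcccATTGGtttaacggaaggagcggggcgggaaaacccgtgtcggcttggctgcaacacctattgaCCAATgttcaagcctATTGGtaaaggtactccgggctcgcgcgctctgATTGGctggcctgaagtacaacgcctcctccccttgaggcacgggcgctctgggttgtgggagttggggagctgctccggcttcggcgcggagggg
MVD, chr16:88663042-88663341, minus strand: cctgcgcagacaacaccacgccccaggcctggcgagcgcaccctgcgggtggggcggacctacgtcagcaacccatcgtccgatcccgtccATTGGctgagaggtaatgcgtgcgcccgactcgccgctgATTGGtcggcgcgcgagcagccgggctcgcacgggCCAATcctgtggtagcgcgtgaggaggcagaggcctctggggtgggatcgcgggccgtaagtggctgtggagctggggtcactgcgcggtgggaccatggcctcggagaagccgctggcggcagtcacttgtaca
MSMO1, chr4:165327419-165327718, plus strand: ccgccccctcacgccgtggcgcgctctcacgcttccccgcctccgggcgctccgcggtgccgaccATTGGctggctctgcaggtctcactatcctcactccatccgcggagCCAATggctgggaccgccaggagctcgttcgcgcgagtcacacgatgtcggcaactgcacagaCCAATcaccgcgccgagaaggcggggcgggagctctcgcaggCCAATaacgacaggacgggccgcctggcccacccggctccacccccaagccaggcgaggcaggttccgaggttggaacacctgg
NSDHL, chrX:152830813-152831112, plus strand: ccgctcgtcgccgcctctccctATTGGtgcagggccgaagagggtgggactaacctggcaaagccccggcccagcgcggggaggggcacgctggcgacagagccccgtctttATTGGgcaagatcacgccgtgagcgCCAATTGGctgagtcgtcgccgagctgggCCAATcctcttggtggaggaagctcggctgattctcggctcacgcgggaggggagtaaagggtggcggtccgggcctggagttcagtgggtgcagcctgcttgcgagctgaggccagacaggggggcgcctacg
EBP, chrX:48521558-48521857, plus strand: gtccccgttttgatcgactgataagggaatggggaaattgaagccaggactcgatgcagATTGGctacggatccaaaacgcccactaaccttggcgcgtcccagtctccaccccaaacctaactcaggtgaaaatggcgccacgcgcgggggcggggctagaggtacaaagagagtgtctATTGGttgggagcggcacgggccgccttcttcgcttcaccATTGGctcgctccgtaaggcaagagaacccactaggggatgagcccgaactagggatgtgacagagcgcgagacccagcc
MVK and NSDHL held 5 boxes each, MSMO1 held 4, and MVD and EBP held 3 each, with all of them before the start used for the window. For MVK that start lies inside the gene's RefSeq extent, which begins at 109573272 of GRCh38, so its boxes lie after that outer start. In NSDHL a box on each strand shared letters at its end, so that they read as CCAATTGG. A match of these letters is not a bound site, and binding was not measured.

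INSIG1, which holds the SREBP complex in the endoplasmic reticulum and is itself an SREBP target, was listed at the lowest value in 5 libraries and at 5.74, the value of 1 read, in control replicate 1. Whether these cells lack its RNA or the quantification missed it cannot be read from the table. MYLIP encodes a ubiquitin ligase that marks lipoprotein receptors for degradation and is a target of LXR. MYLIP (ENSG00000007944.15, chromosome 6, 16129086 to 16163887 of GRCh38) stood at 8.54, 8.61 and 8.81 in GDF11 libraries, against 7.90, 7.56 and 8.28 in control libraries. It rose by 0.74 ± 0.20 (adjusted p = 0.0283), with 318 ± 41 normalised reads in GDF11 libraries and 164 ± 59 in control libraries (SD, n = 3 each). Control replicate 3 was the highest control, and the call ended without control replicate 1 or 2 or any GDF11 library (0.56 to 0.80) and once the fit held the RNA integrity number (0.19).

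Of the 4 uptake and transport genes limma called 0, the groups of each overlapped, and 1 (NPC1L1) had an unadjusted p under 0.05. NPC1 and NPC2 hand cholesterol out of lysosomes. NPC1 had 12.37, 12.31 and 12.23 with GDF11, against 11.77, 12.003 and 12.27 without (0.29 ± 0.17, adjusted p = 0.238), and without control replicate 3 it was higher (0.42, adjusted p = 0.0255). NPC2 averaged 12.81 ± 0.09 with GDF11 and 13.05 ± 0.23 in controls (adjusted p = 0.325), and it was lower without control replicate 3 (-0.37). NPC1L1, which takes free cholesterol up across the plasma membrane, had 11.64, 11.61 and 11.37 with GDF11, against 12.14, 12.27 and 11.58 without. NPC1L1 was not called with the 6 libraries (-0.46 ± 0.20, adjusted p = 0.132) but was lower without control replicate 3 (-0.67) and with the GC and length trend taken out (-0.53). STARD4, a soluble sterol carrier and SREBP target, had 10.72, 10.65 and 10.98 with GDF11, against 10.62, 10.46 and 10.66 without (0.20 ± 0.15, adjusted p = 0.365).

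Esterification showed the largest difference of the list. SOAT2 is the acyltransferase of hepatocytes and enterocytes that makes cholesteryl ester for lipoproteins, and SOAT1 is its widely expressed relative. SOAT2 (ENSG00000167780.12, chromosome 12, 53103486 to 53124535 of GRCh38) stood at 8.34, 8.77 and 8.47 in GDF11 libraries, against 10.82, 11.02 and 9.87 in control libraries. The groups were 1.10 apart at their nearest, although control replicate 3 lay about 1 under the other controls. SOAT2 fell by 2.04 ± 0.29 (adjusted p = 0.00134), with 286 ± 57 normalised reads in GDF11 libraries and 1513 ± 595 in control libraries (SD, n = 3 each), which is 18.9% of the control. It was called lower under the 20 alternative settings tried, with differences of -2.39 to -1.35. SOAT1 had 10.56, 10.44 and 10.67 with GDF11, against 10.61, 10.53 and 11.10 without, and was not called (-0.19 ± 0.18, adjusted p = 0.480). The log2 difference SOAT2 minus SOAT1 averaged -2.03 ± 0.31 with GDF11 and -0.18 ± 0.93 in controls, and the groups did not overlap (exact two-sided permutation p = 0.1, the smallest for 3 against 3; 0.15 adjusted over the 3 gene pairs compared).

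Of the exporters, ABCG5 and ABCG8 pair up as a single transporter that moves sterol into bile, while ABCG1 passes cholesterol to high density lipoprotein. ABCG8 (ENSG00000143921.9, chromosome 2, 43838971 to 43882988 of GRCh38) stood at 9.25, 9.23 and 9.26 in GDF11 libraries, against 10.17, 10.43 and 10.39 in control libraries. The GDF11 values agreed within 0.01 (SD), control replicate 3 lay between the other controls, and the groups were 0.91 apart. ABCG8 fell by 1.08 ± 0.14 (adjusted p = 0.001001), to 43.3% of the control, and was called lower under the 20 alternative settings with differences of -1.37 to -0.98. ABCG5 had 8.90, 8.999 and 9.17 with GDF11, against 8.80, 8.82 and 9.43 without, and its means were equal within the error (0.00 ± 0.20, adjusted p = 0.995). Control replicate 3 was its highest library. The log2 difference ABCG8 minus ABCG5 averaged 0.23 ± 0.13 with GDF11 and 1.31 ± 0.33 in controls, without overlap (exact two-sided permutation p = 0.1, the smallest possible; 0.15 adjusted over the 3 pairs). ABCG1 had 5.99, 6.11 and 6.35 with GDF11, against 6.15, 5.93 and 6.35 without (0.01 ± 0.14, adjusted p = 0.971). It was near the lowest value, at 9.40 ± 5.54 normalised reads with GDF11 and 9.31 ± 5.92 in controls. A small change could not be detected at this level.

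The pair lies head to head, and its promoter windows are given because the genes share much of them. The RefSeq promoter windows of chromosome 2 use an ABCG5 start on the minus strand and an ABCG8 start on the plus strand. Between these starts lie 132 bases, and 231 bases are common to both windows. The RefSeq extent of ABCG5, 43806211 to 43839231 of GRCh38, reaches past the ABCG8 start at 43838971, so the distance depends on the ABCG5 start used. Capitals mark the common bases, which are the reverse complement of each other in these lines.
ABCG8, chr2:43838721-43839020, plus strand: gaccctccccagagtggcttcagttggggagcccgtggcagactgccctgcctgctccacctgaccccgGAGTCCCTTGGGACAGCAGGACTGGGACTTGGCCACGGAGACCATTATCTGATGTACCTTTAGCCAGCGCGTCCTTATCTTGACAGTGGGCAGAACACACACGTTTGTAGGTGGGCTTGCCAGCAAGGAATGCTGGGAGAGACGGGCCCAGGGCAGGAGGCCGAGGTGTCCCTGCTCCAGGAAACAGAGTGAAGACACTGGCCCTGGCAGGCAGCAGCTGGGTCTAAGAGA
ABCG5, chr2:43838790-43839089, minus strand: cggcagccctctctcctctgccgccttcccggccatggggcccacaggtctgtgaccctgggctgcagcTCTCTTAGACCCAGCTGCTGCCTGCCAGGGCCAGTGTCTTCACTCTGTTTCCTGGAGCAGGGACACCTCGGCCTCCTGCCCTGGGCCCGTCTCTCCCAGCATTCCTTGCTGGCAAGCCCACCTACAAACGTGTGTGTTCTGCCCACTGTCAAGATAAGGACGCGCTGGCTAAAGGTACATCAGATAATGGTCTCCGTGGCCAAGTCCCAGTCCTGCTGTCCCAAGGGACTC
Neither window held CCAAT, TCACNCCAC or GGGCGG, the GC box. In the GRCh37 annotation some transcripts of these genes overlap on opposite strands, over 6924 bases, and reads there can be told apart only by strand.

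**Figure D5:**
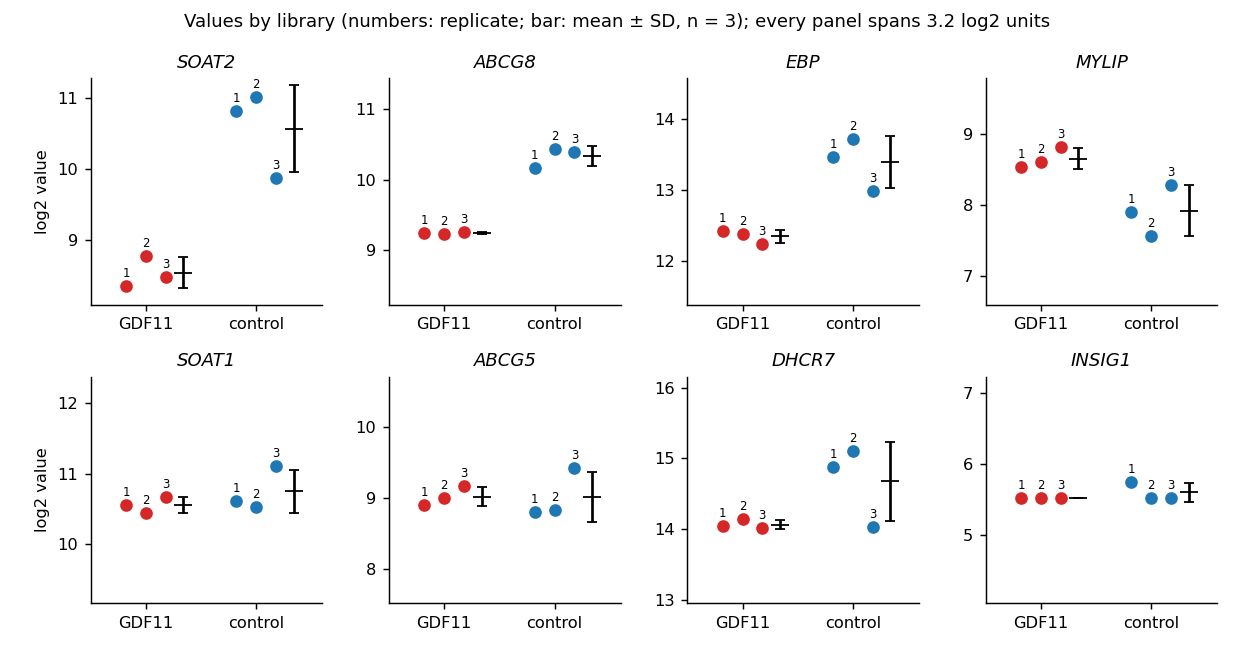
Log2 values by library for 8 members, GDF11 libraries left of the controls, with replicate numbers and the mean ± SD (n = 3) beside the points; each panel spans the same range. SOAT2 and ABCG8 separate by group and their relatives SOAT1 and ABCG5 do not, control replicate 3 of DHCR7 stands with the GDF11 libraries, and INSIG1 lies at the lowest value but for control replicate 1.

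Genes that surround the pathway were taken from lists of its regulators, receptors and carriers. Of 17 genes of SREBP and LXR control, 0 rose, 2 fell and 15 were not called, with a median difference of 0.11; the share lower, 11.8%, is near the 10.8% of all genes. NR1H3, which encodes LXR-alpha, fell by 1.10 ± 0.22 (adjusted p = 0.00874) and stood at -0.46 with the RNA integrity covariate, where it was not called. SREBF2, the gene of SREBP-2, averaged a difference of -0.42 ± 0.21 (adjusted p = 0.170), its escort SCAP -0.63 ± 0.23 (adjusted p = 0.0802) and INSIG2 -0.11 ± 0.15 (adjusted p = 0.629). ERLIN1, of the degradation machinery of the endoplasmic reticulum, was not called (-0.40 ± 0.15, adjusted p = 0.0802).

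Among 14 lipoprotein receptors and endocytic adaptors 3 rose and 0 fell, with a median of -0.31, where 11.7% of all genes rose and 10.8% fell. VLDLR and LRP1, both large lipoprotein receptors, rose by 0.78 ± 0.18 (adjusted p = 0.0166) and 0.70 ± 0.16 (adjusted p = 0.0146), and CCDC93, a subunit of the recycling complex that returns receptors to the surface, rose by 0.88 ± 0.24 (adjusted p = 0.0278). With RNA integrity in the fit none of these 3 was called, at 0.49 for VLDLR, 0.58 for LRP1 and 0.18 for CCDC93. Leaving out 1 library ended the call of CCDC93 in 5 of 6 cases (0.68 to 0.95), of VLDLR in 4 (0.66 to 0.79) and of LRP1 in 3 (0.60 to 0.73). COMMD9 of the same complex was not called (-0.48 ± 0.20, adjusted p = 0.109). Of 21 sterol transport and membrane contact genes 17 were tested, 5 rose and 1 fell, with a median of 0.25, against the same 11.7% and 10.8% of all genes. The decrease was in TMEM97, an endoplasmic reticulum protein that lowers NPC1 and is induced when sterol is scarce (-1.22 ± 0.18, adjusted p = 0.00166). GRAMD1B, which draws sterol from the plasma membrane at contact sites, rose by 0.99 ± 0.19 (adjusted p = 0.00664), the lysosomal protein gene SCARB2 rose by 0.79 ± 0.16 (adjusted p = 0.00762) and the oxysterol-binding family gene OSBPL10 rose by 1.00 ± 0.24 (adjusted p = 0.0169). With RNA integrity in the fit SCARB2 (0.48, adjusted p = 0.110) and OSBPL10 (0.46, adjusted p = 0.383) were not called, and OSBPL10 also lost its call in 4 of the 6 fits that left out 1 library (0.80 to 1.01). Of 13 genes that use farnesyl diphosphate for other ends 0 rose and 3 fell, with a median of -0.26; 11.7% of all genes rose and 10.8% fell. Among them were FNTB, a farnesyltransferase subunit gene (-0.73 ± 0.16, adjusted p = 0.0110), and PDSS1 of ubiquinone synthesis (-0.52 ± 0.16, adjusted p = 0.0443), while RABGGTB was not called (-0.40 ± 0.14, adjusted p = 0.0764). FNTB lost its call without GDF11 replicate 1 or 2 (-0.74 and -0.72) and with RNA integrity in the fit (-0.46, adjusted p = 0.168). PDSS1 lost it without any library other than control replicate 3 (-0.61 to -0.46), without the filter on low values (adjusted p = 0.0606) and with RNA integrity in the fit (-0.38, adjusted p = 0.361).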

How the data were processed

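RNA of 3 GDF11-treated and 3 control HepG2 libraries was sequenced as single reads of 75 bases from 250 ng of RNA, per the labels' protocols. The submitters' processing notes name Trimmomatic, Salmon 1.2.1, DESeq2 and GRCh38, while STAR 2.6 and hg19 stand in the labels' protocols; the sources used here do not say which of them made the table. The authors deposited 1 table of variance-stabilised log2 values for 60240 genes. Inverting that curve put 71.4% to 74.5% of low values on whole reads (within 0.01, up to 20 reads), so no count test was run. Gene symbols matched 58349 IDs (96.9%). For each gene limma 3.58.1 (R 4.3.3; lmFit, then eBayes with a mean trend; two-sided) compared the 6 libraries without a covariate, and the script was checked on simulated data. The p-values measure the spread between these cultures. Transcript GC content and length came from GENCODE transcripts lifted to GRCh37, for 99.1% of tested genes. Positions and promoters are RefSeq GRCh38.p14, matched by symbol; ACAT2, FDFT1, SQLE, SOAT2 and ABCG1 had no promoter sequence used here. Members, lists and motifs were chosen with earlier results of these data known. Values are given in full for called members and for a set of key steps, and for up to 4 genes with the lowest p of each other list; SREBF2, SCAP, INSIG2 and the pseudogene were added after their values were seen, and some genes that the rule names are not reported here. No pair of replicates agreed within counting noise, with a chi-square of 26.4 to 219.5 for each degree of freedom.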

Additional observations from a re-analysis of the deposited data

How the results depend on the processing

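Of the 11 members called lower, 6 (ACAT2, MVK, LSS, EBP, SOAT2 and ABCG8) kept the call whichever library was left out, and 3 (ACAT2, SOAT2 and ABCG8) kept it under the 20 alternatives. Leaving out 1 library gave 6 to 17 members lower and 0 to 2 higher, with 955 to 3993 genes lower and 1397 to 3647 higher among all tested; the highest values came without control replicate 3. Library weights gave 20 members lower and 2 higher (all genes 4554 and 4473), the RNA integrity covariate 4 and 0 (721 and 1149), and a threshold of 0.01 gave 7 and 0 (791 and 1170). Taking out the GC and length trend called 3063 genes lower, and with control replicate 3 also left out, an alternative chosen after seeing the data, 20 members were lower, with 4477 genes lower and 3678 higher. Whether replicate numbers pair the libraries could not be told from the values. Deviations of same-numbered libraries correlated at -0.09 for replicate 1, 0.38 for replicate 2 and 0.48 for replicate 3. Control replicates 2 and 3 correlated best with the GDF11 library of the same number, and control replicate 1 best with GDF11 replicate 2 (0.25). With the replicate block 16 members were lower and 1 higher, and 3306 genes were lower and 3147 higher. The members' median of -0.47 stood at -0.35 with quantile normalization and between -0.55 and -0.35 under every alternative run. Signs of genes that were not called turned in places. With the RNA integrity covariate these were NPC1L1 (0.090), NPC2 (0.098), PMVK (0.027), DHCR7 (0.085), COMMD9 (0.017), STARD4 (-0.015), ABCG5 (-0.51) and ABCG1 (-0.39). ABCG5 and ABCG1 also turned with quantile normalization (-0.058 and -0.056) and median centring (-0.056 and -0.049). ABCG1 turned with library weights (-0.048), and ABCG5 with the GC and length trend taken out (-0.026). Leaving out 1 library put ABCG5 between -0.11 and 0.21 and ABCG1 between -0.099 and 0.11, and SQLE between -0.25 and 0.033, the highest without control replicate 3. SQLE stood at 0.023 with quantile normalization and 0.028 with library weights, and SC5D at -0.083 with the trend taken out and control replicate 3 left out. The cause of these changes was not tested. At the estimated depth, itself uncertain, ABCG1 had too few reads for a small difference to be seen, and INSIG1 had too few to be tested.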

Other observations

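Cholesterol leaves hepatocytes as bile acid, and the genes described here encode enzymes that hydroxylate, reduce or sulfate sterols or hydrolyse their esters. Of 12 such genes 10 were tested, 2 rose, 4 fell and 4 were not called, with a median difference of -0.17, where 22.4% of all genes were called. SULT2B1, a sterol sulfotransferase gene, rose by 1.17 ± 0.12 (limma adjusted p = 0.000233). CYP7A1, the rate-limiting hydroxylase of bile acid synthesis, fell by 0.87 ± 0.13 (adjusted p = 0.00223) close to the lowest value of the table. CYP27A1, which makes an oxysterol in mitochondria, fell by 1.04 ± 0.23 (adjusted p = 0.0125), and AKR1D1, a bile acid reductase gene, fell by 1.39 ± 0.32 (adjusted p = 0.0157). With RNA integrity in the fit CYP27A1 (-0.40, adjusted p = 0.274) and AKR1D1 (-0.46, adjusted p = 0.457) were not called. CYP27A1 also lost its call without control replicate 1 or GDF11 replicate 3 (-0.94 and -0.97), and AKR1D1 without control replicate 1 or 2 (-1.43 and -1.11). The list shares its control libraries with the results above, and control replicate 3 lay at a median of 0.55 of the way to the GDF11 mean over 8 of its genes.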
